A study of Mus musculus with 2 samples.

Results

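The 2',5'-oligoadenylate synthetase (Oas) genes were examined in CT26 cells, a mouse colon cancer line first made in BALB/c mice, with and without knockdown of Setdb1, a histone H3 lysine methyltransferase. The members were the 8 genes named Oas1a, Oas1b, Oas1c, Oas1g, Oas2, Oas3, Oasl1 and Oasl2, taken by symbol from a table of 54680 loci. Each of the 8 had 1 locus. In the CT26shSetdb1 group Setdb1 was targeted by a short hairpin RNA delivered by lentivirus, and the CT26shCtrl group, labelled wild type, received the empty knockdown vector. The labels do not say whether that vector makes a hairpin, or whether either culture came from 1 clone. Both groups were infected with lentivirus and collected after 6 days, when the labels call the knockdown cells differentiated and altered in phenotype. With 1 library a group, no test between the conditions was possible and there is no replicate check, so all differences describe these libraries only.

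Oas proteins are part of the interferon response. Bound to double-stranded RNA, the active ones join ATP into short chains with 2',5' bonds, called 2-5A, a signal that sets off the breakdown of cellular and viral RNA. The Oas1, Oas2 and Oas3 proteins are built from 1, 2 and 3 copies of the same synthetase unit. The mouse carries a run of Oas1 copies, of which several have lost the enzyme activity, and the Oasl proteins have the synthetase unit joined to ubiquitin-like repeats. In most cells these genes are induced by type I interferon through a factor that holds Stat2 and Irf9 and binds the interferon-stimulated response element, a repeat of the letters GAAA.

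All 8 genes lie on chromosome 5 of the GRCm38 assembly, in 2 groups. Oasl2 (ENSMUSG00000029561, 114896936 to 114912234) and Oasl1 (ENSMUSG00000041827, 114923240 to 114937915) stand side by side on the plus strand. The second group runs from Oas2 (ENSMUSG00000032690, minus strand, 120730333 to 120749853) through Oas3 (ENSMUSG00000032661, minus strand, 120753098 to 120777661) to the Oas1 copies. These were Oas1c (ENSMUSG00000001166, minus strand, 120800194 to 120812514), Oas1b (ENSMUSG00000029605, plus strand, 120812635 to 120824163), Oas1g (ENSMUSG00000066861, minus strand, 120876142 to 120887613) and Oas1a (ENSMUSG00000052776, minus strand, 120896256 to 120907521). Oas1e lies between Oas3 and Oas1c, Oas1f and Oas1h lie between Oas1b and Oas1g, and Oas1d lies beyond Oas1a.

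Promoter sequences were compared because the members differed in the same direction. RefSeq windows in GRCm38.p6, each 300 bases long with 250 before the gene start, were matched for 6 of the 8 members, and those of Oas2 and Oas1b were not. The core of the response element, here called the paired GAAA motif and written as GAAA, any 2 bases, GAAA, was searched on both strands, with overlapping matches counted. Windows of 100 bases around the matches are printed, 5′ to 3′ on the strand of the named gene, with the matching letters in capitals. The Oas1b entry is the Oas1c window read on the other strand, since these 2 genes start head to head with 120 bases between them.
Oas1a, chr5:120907501-120907600, minus strand: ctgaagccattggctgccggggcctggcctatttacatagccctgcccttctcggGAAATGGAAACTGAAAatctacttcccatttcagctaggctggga
Oas1g, chr5:120887589-120887688, minus strand: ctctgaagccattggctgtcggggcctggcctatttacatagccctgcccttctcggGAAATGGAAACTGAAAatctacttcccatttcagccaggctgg
Oas1b, chr5:120812565-120812664, plus strand: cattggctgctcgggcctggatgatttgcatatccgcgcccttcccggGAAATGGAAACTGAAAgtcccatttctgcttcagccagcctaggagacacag
Oas3, chr5:120777660-120777759, minus strand: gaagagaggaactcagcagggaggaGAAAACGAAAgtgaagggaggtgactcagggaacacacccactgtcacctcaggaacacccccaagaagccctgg

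The same 16 letters, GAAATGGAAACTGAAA, stand just before the starts of Oas1a, Oas1g and Oas1b. Positions are counted from the RefSeq start behind each window, with -1 the base before it, and for Oas1b from the start in the deposited table. The RefSeq start differs from that table's start by 4 bases for Oas1a, 2 for Oas3 and Oasl2, and 0 for Oas1c, Oas1g and Oasl1. The letters run from -20 to -5 in Oas1a, from -18 to -3 in Oas1g and from -22 to -7 in Oas1b. Seen from Oas1c, whose start lies on the other side, the same bases run from -114 to -99 on the opposite strand. The run holds 2 overlapping matches to the paired GAAA motif. Oas3 has 1 match, from -75 to -66. Over all 32851 RefSeq windows of this length, the paired GAAA motif was present in 3.44%. With CT directly after it, the 12-letter form, it was present in 0.271%, and with C, any base and a further GAAA after it, the 16-letter form, in 0.0487%. Both longer forms were written after the sites were seen. Of the 6 members with a window, Oas1a, Oas1c, Oas1g and Oas3 held the paired motif, and all of these but Oas3 held the longer forms. The windows of Oasl1 and Oasl2 had no match, which says only that these letters are not in those 300 bases. A shorter form, AANNGAAA, taken up for Oasl1 and Oasl2, occurred at 3 places in the Oasl1 window and at 0 in that of Oasl2. Oas1g held 3 places, Oas1a, Oas1c and Oas3 held 2 each, and Oas1f and Oas1h, which are not members, 1 each. This shorter form was present in 23.9% of all windows. The letters TTCNNNGAA, a form bound by STAT-family factors, were in 8.30% of all windows and, among the members, in that of Oas1a, from -98 to -90. The 3 places in Oasl1 are shown in capitals, the first of them on the opposite strand.
Oasl1, chr5:114923050-114923149, plus strand: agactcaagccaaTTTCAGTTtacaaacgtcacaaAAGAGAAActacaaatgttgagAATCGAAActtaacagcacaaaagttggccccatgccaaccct

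The control and the knockdown library held 18421604 and 19045830 reads. Levels are FPKM, here reads per kilobase of gene model over 1 depth common to both libraries, so they are not corrected for the difference in depth, a ratio of 1.03. Whole reads could be recovered from every value. A fold change is given as the ratio of reads, knockdown over control, each relative to its library's total, with a 95% exact (Clopper-Pearson) interval. The interval covers counting error only, since copies made by PCR are counted as reads, and says nothing of how cultures vary. Log2 ratios are of (FPKM + 1), which understates the change of low genes. Setdb1 itself was at 10.4 FPKM in the control and 2.47 FPKM in the knockdown library, 23.7% of the control level, and its model overlaps Cers2 and other loci with reads. The label of a colon cancer line was set against markers: of 12 epithelial genes 3 reached 1 FPKM in either library, and 4, among them Epcam and Cdh1, had no read in either library, while 6 of 7 mesenchymal genes reached 1 FPKM. The epithelial list summed to 43.8 FPKM in the control and 128 FPKM in the knockdown library, and Krt18 and Krt20, at 1 FPKM in both libraries, were at least 2-fold higher. Krt19 reached 1 FPKM only in the knockdown library, with 1 and 53 reads, and Lgals4 had 28 and 23 reads. Of 11 leukocyte genes 1 reached 1 FPKM. This was Cd68, a lysosomal protein of macrophages that other cells also make, at 10.4 FPKM in the control and 100.2 FPKM in the knockdown library. The other 10 summed to 1.19 and 0.974 FPKM, and 5 of them, Cd3e, Adgre1, Itgam, Tyrobp and Fcer1g, had no read in either library. The 4 endothelial genes summed to 1 and 0 reads. The part of these markers in the results on the Oas genes was not tested.

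All 8 Oas genes were at least 2-fold higher in the knockdown library, and 7 of them at least 4-fold higher, on the (FPKM + 1) scale used for all such counts. Among the 10671 genes that reached 1 FPKM in at least 1 library, 6.81% were past 2-fold upwards and 1.09% past 4-fold upwards. The median log2 ratio of the 8 was 2.84, against -0.00039 over all genes tested. Every member reached 1 FPKM, but Oas1c did so only in the knockdown library. Summed reads of the 8 were 4160 (control) and 39693 (knockdown), a read ratio of 9.23 (8.94 to 9.53). Per length, the family's summed level was 77.6 FPKM in the control and 648 FPKM in the knockdown library. In bulk RNA, more transcript per cell and more cells with transcript cannot be told apart.

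**Figure D1:**
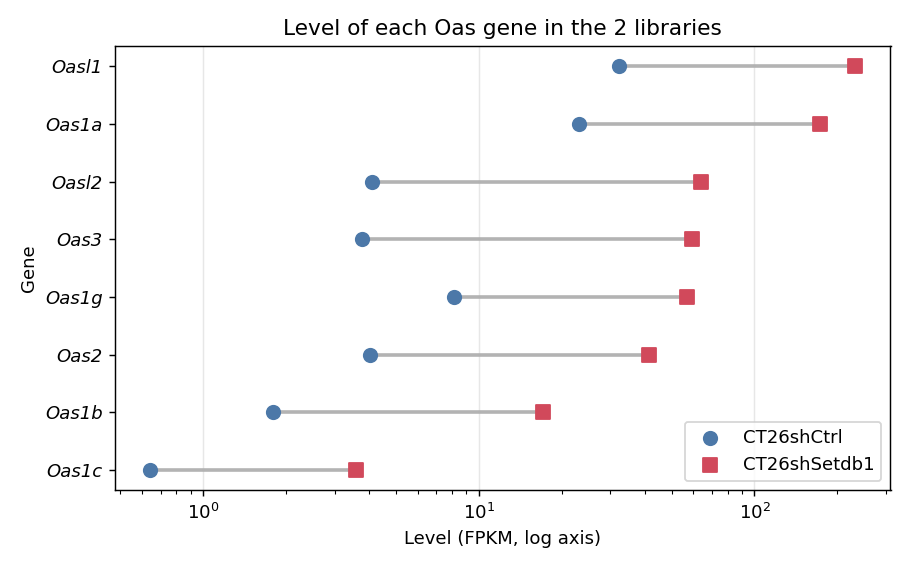
Level of each of the 8 Oas genes, in FPKM on a log axis, with 1 circle for the CT26shCtrl library and 1 square for the CT26shSetdb1 library. All 8 Oas genes have the square to the right of the circle, from Oasl1 at 32.2 and 232 FPKM down to Oas1c at 0.644 and 3.57 FPKM.

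Oas1a encodes an active single-unit synthetase. The control library held 812 Oas1a reads (23.0 FPKM) and the knockdown library 6121 (173 FPKM), a read ratio of 7.29 (6.78 to 7.85) and a log2 ratio of 2.86. Oas1g, its nearest copy, also encodes an active enzyme. Oas1g stood at 8.14 FPKM (357 reads) without and 57.1 FPKM (2504 reads) with the knockdown, a read ratio of 6.78 (6.07 to 7.60). The intervals of the Oas1a and Oas1g ratios overlap, and Oas1a had the higher FPKM in both libraries.

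Oas2 encodes the synthetase with 2 units, of which the last is the catalytic one. It went from 335 reads (4.02 FPKM) to 3462 reads (41.5 FPKM), a read ratio of 10.0 (8.93 to 11.2). Oas3 encodes the largest family member, whose extra units hold long double-stranded RNA. Its reads were 499 (3.77 FPKM) in the control and 7827 (59.1 FPKM) in the knockdown library, a read ratio of 15.2 (13.9 to 16.6). The intervals of Oas1a, Oas2 and Oas3 do not overlap each other, so among these 3 the ratio differed by more than counting error, in the order Oas1a, Oas2, Oas3. Oas1a, Oas1g, Oas2 and Oas3 together went from 38.9 to 331 FPKM.

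Oas1b and Oas1c are the copies that the authors' table names inactive. Oas1b is the Flv locus, known for its role in resistance of mice to flaviviruses, and carries an early stop codon in most laboratory strains. For Oas1b the control library held 67 reads (1.80 FPKM) and the knockdown library 636 (17.0 FPKM), a read ratio of 9.18 (7.13 to 12.0). Oas1c had the lowest level of the 8 in both libraries, 0.644 FPKM (29 reads) and 3.57 FPKM (161 reads), a read ratio of 5.37 (3.60 to 8.27). Its log2 ratio of 1.48 was the lowest of the 8 and the only one under 4-fold on that scale, on which 1 FPKM is added to both levels. These 2 genes share the sequence between their starts, and the intervals of their ratios overlap in part. The difference between the ratios was not tested.

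The table lists Oas1b as a polymorphic pseudogene, and the GENCODE M21 transcript Oas1b-203, from the C57BL/6J genome, has an in-frame stop at codon 253 of 376. That stretch of coding sequence is shown beside the aligned stretch of Oas1a, with the stop codon of Oas1b and the aligned codon 258 of Oas1a in capitals.
Oas1b, chr5:120821284-120821334, plus strand: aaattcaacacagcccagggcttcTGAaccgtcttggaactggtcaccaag
Oas1a, chr5:120899165-120899215, minus strand: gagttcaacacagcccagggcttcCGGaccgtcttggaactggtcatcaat
Which of these the CT26 transcripts carry cannot be read from a table of counts per gene. The Oas1b values therefore measure transcripts, not a full-length protein.

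Oasl1 and Oasl2 encode the members with ubiquitin-like repeats. Oasl1 makes no 2-5A and is known to hold back the translation of Irf7 mRNA, while mouse Oasl2 has kept synthetase activity. As counted, Oasl1 had the highest level of the 8 in both libraries. It stood at 32.2 FPKM (1571 reads) in the control and 232 FPKM (11336 reads) in the knockdown library. Its read ratio was 6.98 (6.62 to 7.36). Oasl2, its neighbour, was at 4.10 FPKM (490 reads) and 64.0 FPKM (7646 reads), a read ratio of 15.1 (13.8 to 16.6). The 2 neighbours thus differed in ratio by more than counting error, and their ratios lay next to those of unlike members, Oasl1 beside Oas1a and Oas1g, and Oasl2 beside Oas3.

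**Figure D2:**
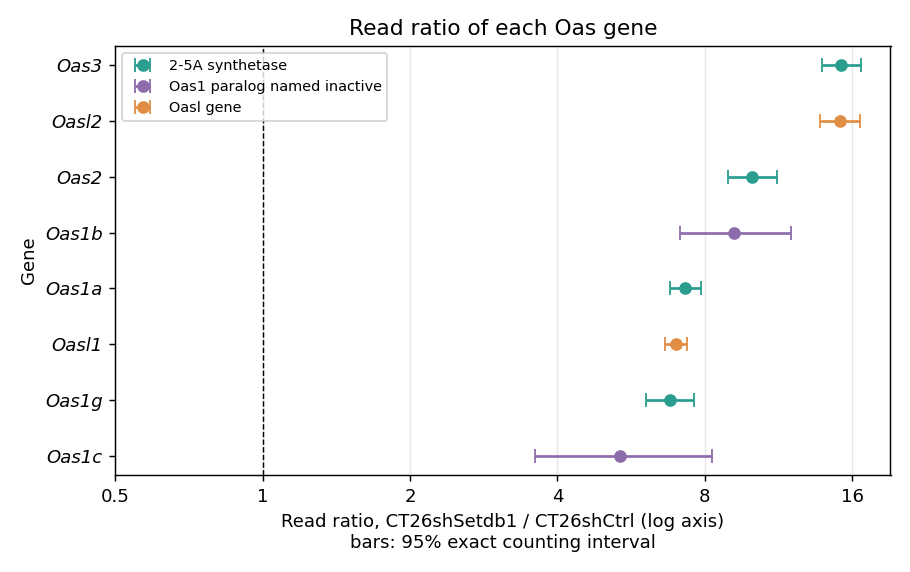
Read ratio of each Oas gene, CT26shSetdb1 over CT26shCtrl relative to library totals, on a log axis, with bars for the 95% exact counting interval and colours for the role. Oas3 and Oasl2 lie near 15, Oas1c is the lowest at 5.37, and no bar reaches the dashed line at 1.

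By FPKM, which corrects for length, the order in the control library was Oasl1, Oas1a, Oas1g, Oasl2, Oas2, Oas3, Oas1b and Oas1c. In the knockdown library it was Oasl1, Oas1a, Oasl2, Oas3, Oas1g, Oas2, Oas1b and Oas1c. The highest pair and the lowest pair kept their places, and Oas1g passed from place 3 to place 5. Oasl2, Oas2 and Oas3 were within 3.77 to 4.10 FPKM of each other in the control library and spread from 41.5 to 64.0 FPKM in the knockdown library. The share of the family's summed FPKM held by Oasl1 was 41.4% in the control and 35.8% in the knockdown library. The shares of Oas3 and Oasl2 went from 4.85% to 9.12% and from 5.29% to 9.89%.

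By read ratio the order was Oas3, Oasl2, Oas2, Oas1b, Oas1a, Oasl1, Oas1g and Oas1c. Each member's interval overlapped that of the next in this order except between Oasl2 and Oas2. Oas1b, with few control reads, had an interval wide enough to reach those of Oas2, Oas1a, Oasl1, Oas1g and Oas1c. Among the 10671 genes tested, ranked from the highest log2 ratio down, Oasl2 stood at 13, Oas3 at 14, Oas2 at 27, Oas1a at 35, Oasl1 at 38, Oas1b at 44, Oas1g at 46 and Oas1c at 279.

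**Figure D3:**
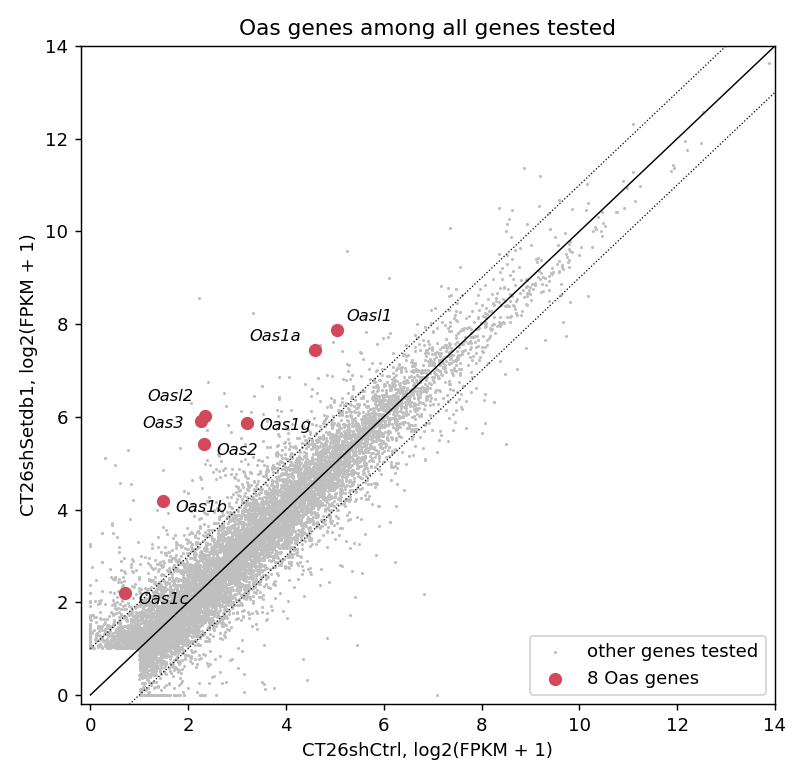
log2(FPKM + 1) of the 10671 genes tested in the CT26shCtrl library (x axis) and the CT26shSetdb1 library (y axis), with the 8 Oas genes as large points, the line of equal level and dotted lines at 2-fold on this scale. All 8 Oas points lie above the upper dotted line, Oas1c nearest to it.

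How far the copies could share reads was measured on the GENCODE M21 transcripts. Every stretch of 100 bases of a member's transcripts was looked for, on both strands, in the transcripts of all other genes. Of the Oas1a stretches 40.9% were also in Oas1g, and 31.3% of the Oas1g stretches were in Oas1a. At a length of 150 bases these shares were 32.4% and 24.1%, and at 50 bases 57.6% and 45.2%. The coding sequences of the pair were 96.7% identical over 1101 bases. Oas1b, Oas2, Oas3, Oasl1 and Oasl2 had no shared stretch of 100 bases. Oas1c shared 4.23% of its stretches, with the antisense locus Gm43069, which had no read in either library. At 50 bases, Oas1c shared 15.1%, mostly with Gm43069, Oas1e and Oas1d, and Oas1b shared 2.98%.

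The split of reads between Oas1a and Oas1g is therefore uncertain, as the treatment of reads that match several places is not given in the sources used here. If such reads were left out, the levels of both genes are too low. The order of levels, with Oasl1 above Oas1a, and the shares of the family's FPKM are then uncertain too. With both added up, the pair had 1169 reads in the control and 8625 in the knockdown library, a read ratio of 7.14 (6.71 to 7.59), between the values of the single genes. Added over all 8 Oas1 copies, the reads were 1265 and 9448, a ratio of 7.22 (6.81 to 7.67). The next closest member of Oas1a was Oas1b, with 80.1% identity in coding sequence, and Oasl1 and Oasl2 were 62.7% identical to each other.

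For the 4 remaining Oas1 copies together, 0 control reads stood against 26 knockdown reads. Oas1h took 22 of them, at 0.690 FPKM. The exact interval of the Oas1h read ratio had a lower limit of 5.30 and no upper limit. Oas1d had 4 reads in the knockdown library. Oas1e and Oas1f had 0 reads in both libraries, which allows up to 0.0889 FPKM for Oas1e and 0.108 FPKM for Oas1f. The windows of Oas1f and Oas1h, the 2 of these 4 copies matched in RefSeq, had no match to the paired GAAA motif.

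Within 200 kb of the 2 gene groups lie 23 other protein-coding genes. Of these, 11 reached 1 FPKM, and 0 of the 11 were past 2-fold in either direction. Over all genes tested the share was 11.7%, so this count is near the background. Neighbours under 1 FPKM were not counted. The log2 ratios of the 11 ran from -0.44 for Rita1 to 0.92 for Slc8b1, both next to the Oas2 side, with a median of 0.20. Beside the Oasl genes the ratios ran from -0.24 for Sppl3 to 0.78 for Acads. The others at 1 FPKM were Tpcn1 (log2 ratio 0.59), Ddx54 (-0.38), Tchp (0.16), Git2 (0.20), Ankrd13a (0.33), 2210016L21Rik (0.29) and Unc119b (-0.13). Among loci that are not protein-coding, 2510016D11Rik, named after its values were seen, went from 25 to 84 reads. It lies inside Tpcn1, with which it can share reads.

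**Figure D4:**
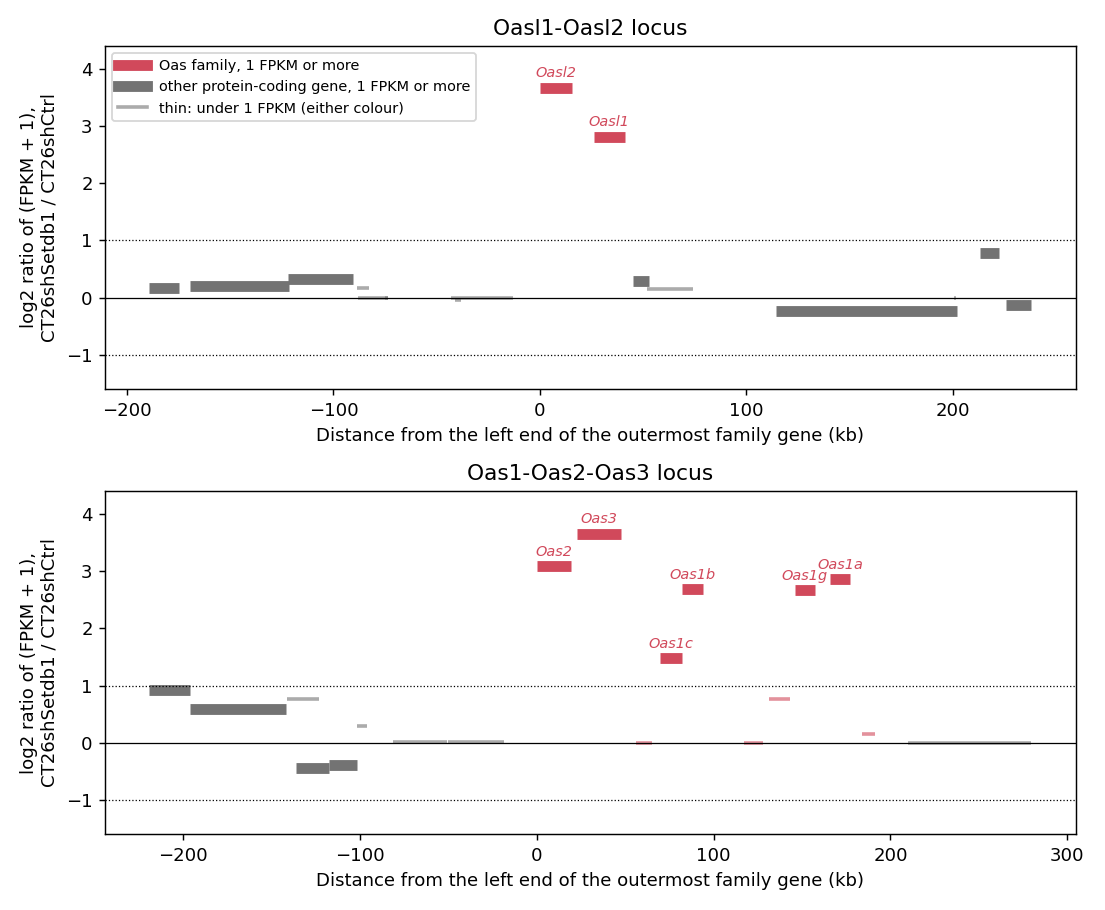
log2 ratio of (FPKM + 1), CT26shSetdb1 over CT26shCtrl, against the distance in kb from the left end of each gene group, with each family member and each other protein-coding gene drawn from its left to its right end. The 8 Oas genes stand above the dotted 2-fold line, and thick grey neighbours at 1 FPKM or more stay between the dotted lines.

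Antisense loci touch 2 members with reads. Gm43068 inside Oas2 had 0 and 11 reads, and Gm13822 at the start of Oasl1 had 5 and 9 reads. Since it is not stated whether counting used strand, these cannot be told apart from reads of the members, and they are few beside the members' own reads.

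Abce1, a ribosome recycling factor, was at 5.79 FPKM (651 reads) in the control and 2.26 FPKM (254 reads) in the knockdown library, with a log2 ratio of -1.06. Pde12, which degrades 2-5A, had 315 and 217 reads, a read ratio of 0.666 (0.558 to 0.795), and its model overlaps other loci with 5157 and 5659 reads. Cnp, a cyclic nucleotide phosphodiesterase of myelin, had 130 and 484 reads and a log2 ratio of 1.48, and it overlaps loci with 716 and 495 reads.

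The wider pathway was described by a list of 37 other genes, of which 22 reached 1 FPKM in at least 1 library and 20 in the control. Of these 22, 10 were past 2-fold upwards and 1, Abce1, downwards, beside 6.81% and 4.85% of all genes tested. The median log2 ratio of the 22 was 0.93. The 10 were Cnp, Dhx58, Zbp1, Ddx58, Adar, Eif2ak2, Tmem173, Irf7, Stat2 and Irf9. Tmem173 lay at the threshold, and its log2 ratio was 0.94 with upper-quartile scaling, 0.96 with own totals and 0.97 on log2(CPM + 1). Ifih1 and Ifngr2 lay under it and passed with a pseudocount of 0.1, at 1.28 and 1.07, and on log2(CPM + 1). The count of 10 was 9 with upper-quartile scaling or own totals, 11 on log2(CPM + 1) and 12 with a pseudocount of 0.1.

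Among 7 sensors of double-stranded or Z-form nucleic acid and their adaptor at 1 FPKM, 5 were at least 2-fold higher. Over all genes tested, the share was 6.81%. Zbp1 and Ifih1 reached 1 FPKM only in the knockdown library, and stood at 0.832 and 0.621 FPKM in the control. Dhx58 (LGP2), a regulator of the RIG-I-like helicases, went from 1.81 to 27.7 FPKM, with a read ratio of 14.8 (12.2 to 18.1). Zbp1, a Z-nucleic acid sensor, had 55 control and 1148 knockdown reads, and its log2 ratio was 3.33. Ddx58 (RIG-I) had a log2 ratio of 1.74, Adar, which edits double-stranded RNA, 1.33, and Eif2ak2 (PKR), the kinase that answers to double-stranded RNA, 1.12. Ifih1 (MDA5) was at 0.71, with a read ratio of 2.58 (2.03 to 3.30), and the adaptor Mavs at -0.11. Tlr3, the endosomal sensor, stayed under 1 FPKM with 81 and 58 reads. By read ratio, Dhx58 lay in the range of the Oas genes. Zbp1, at 20.2 (15.4 to 27.0), lay above the values of all 8, with an interval that overlaps those of Oas3 and Oasl2. The other sensors lay below the values of all 8. Ddx58 came next at 3.89 (3.51 to 4.33), with an interval that overlaps that of Oas1c.

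cGAS, listed as Mb21d1, is a relative of the Oas fold that answers to DNA. It had 89 and 99 reads, a read ratio of 1.08 (0.800 to 1.45). Its downstream partner STING, listed as Tmem173, was at 27.0 and 55.1 FPKM.

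Of 5 transcription factors, Irf7, Stat2 and Irf9 were at least 2-fold higher, beside 6.81% of all genes tested. Irf7, whose translation Oasl1 holds back, was at 9.02 FPKM in the control and 300.1 FPKM in the knockdown library. Its log2 ratio of 4.91 was above that of all 8 Oas genes, and its model overlaps loci with 3097 and 3907 reads. Stat2 went from 578 to 3051 reads (log2 ratio 2.20) and Irf9 from 640 to 2625 reads (1.88), the latter overlapping loci with 990 and 2542 reads. Irf1 was at 0.91 and Irf3, which is activated by phosphorylation, at 0.20.

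Transcripts of the listed interferon genes were scarce, and interferon genes outside the list were not looked at. Of 9 interferon genes on the list, 8 had no read in either library, Ifna1, Ifna2, Ifna4, Ifna5, Ifnl2, Ifnl3, Ifne and Ifng. Ifnb1 had 1 read in the control and 5 in the knockdown library, with a read ratio of 4.84 and an interval of 0.541 to 229 that spans 1. Of the 5 receptor genes at 1 FPKM, 0 were past 2-fold, beside 11.7% of all genes tested, so this count is near the background. Ifnar1 and Ifnar2, the type I receptor chains, had log2 ratios of 0.21 and 0.08. Il10rb was at 0.34, Ifngr2 at 0.95, with a read ratio of 2.05 (1.81 to 2.33), and Ifngr1 at -0.0165, while Ifnlr1 had 0 and 1 read.

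**Figure D5:**
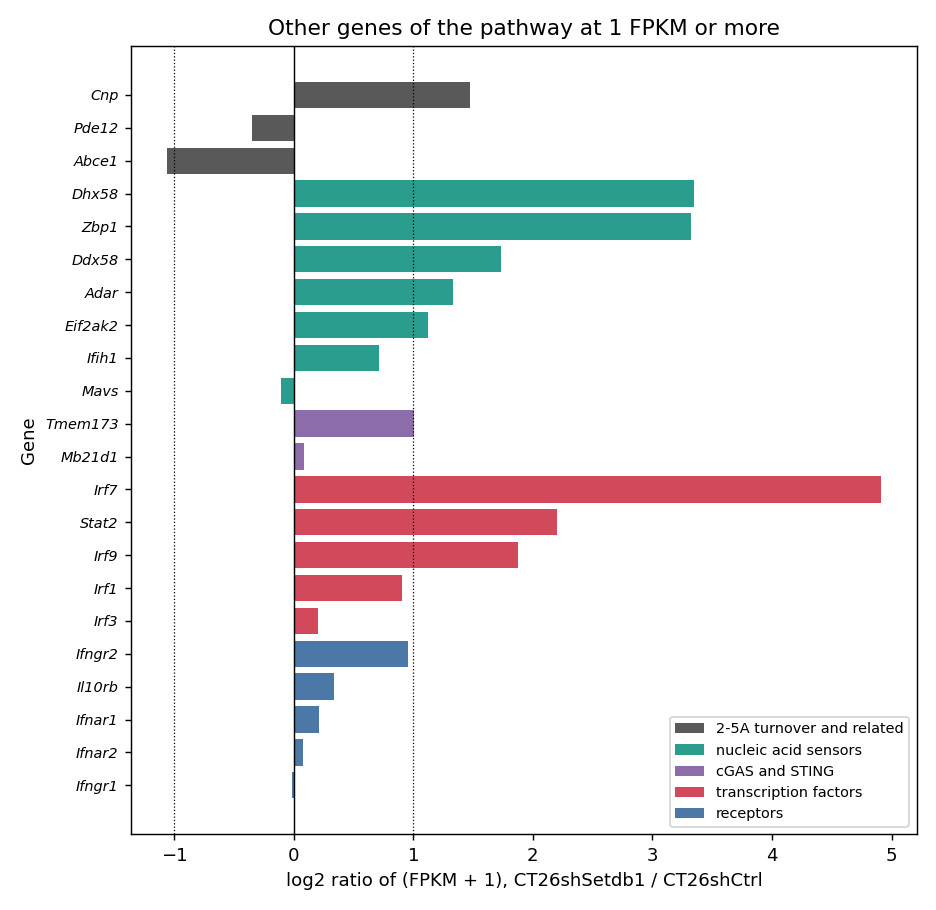
log2 ratio of (FPKM + 1), CT26shSetdb1 over CT26shCtrl, of the 22 other pathway genes at 1 FPKM or more, grouped by role, with dotted lines at 2-fold. Irf7 has the longest bar at 4.91, and Abce1 is the 1 gene past the lower line.

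The genes most like Oasl1, the member with most reads, were taken as the 5 protein-coding genes nearest to it on log2(FPKM + 1) over the 2 libraries. They were Fam162a at a distance of 0.27, Slc2a1 at 0.46, Isg15 at 0.48, Lgals3bp at 0.59 and Oas1a at 0.63. Isg15, the interferon-induced ubiquitin-like modifier, went from 24.8 to 186 FPKM. With only 2 libraries this likeness means a similar level in each, and no more.

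Other genes with the longer promoter letters were counted too, a step added after the values were seen. Both longer forms were written after the Oas sites were seen. Of genes with the 12-letter form in a RefSeq window, 37 reached 1 FPKM in at least 1 library. A gene could enter through the knockdown library alone, as Oas1c did. Of the 37, 23 (62.2%) were past 2-fold upwards and 2 downwards, with a median log2 ratio of 1.24. Over all genes tested, the shares were 6.81% and 4.85%. Without Oas1a, Oas1c and Oas1g, 20 of 34 were at least 2-fold higher. For the 16-letter form it was 9 of 12 genes, and 6 of 9 without the same genes. The part of these letters in the levels was not tested. For the paired GAAA motif alone, 43 of 289 genes (14.9%) were at least 2-fold higher, with a median of 0.08. For TTCNNNGAA it was 43 of 592 genes (7.26%). Oasl1 and Oasl2 were not among the genes with any of these forms of the GAAA motif in a window, and Oas2 and Oas1b had no window.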

How the data were processed

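The authors deposited FPKM values for 54680 loci in 2 libraries, per the file headers, with each gene model's length in bases. CASAVA, HISAT2, featureCounts 1.5.0-p3 and GRCm38 are named in the submitters' processing notes. How strand and multiply matching reads were treated is not given in the sources used here. All 8 members had the same start and end as in GENCODE M21 (GRCm38). Reads were recovered as FPKM times length over 1 common step (largest deviation from a whole number 9.9e-09), which corresponds to a depth of 18731117 for both libraries.

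Log2 ratios of (FPKM + 1) were computed for genes that reached 1 FPKM in either library, with 2-fold as the threshold. With 1 library per group no p-value between conditions was computed. The rule for named genes took the members, pathway genes at 1 FPKM, Setdb1, neighbours within 200 kb and the 5 genes nearest to Oasl1. Members and lists were chosen with earlier results of these data known, and some listed genes are not reported here. Python 3.11.15, pandas 2.3.3, scipy 1.17.1, Biopython 1.88 and matplotlib 3.10.9 were used. The code for calls and intervals was run on simulated reads with counting error only, which says nothing of how cultures vary. Alternatives were other pseudocounts, scalings, filters and thresholds, CPM, sums over loci and a binomial test.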

Additional observations from a re-analysis of the deposited data

How the results depend on the processing

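All 8 Oas genes stayed higher in the knockdown library under every alternative run. Their count past 2-fold was 8, except 7 with a filter at 5 FPKM, which Oas1c does not reach, and 7 at 4-fold. Single log2 ratios ranged from 1.43 to 2.30 for Oas1c and from 3.61 to 3.93 for Oasl2, and 39 of 48 member values stayed within counting error. These include the sum over loci for Oas1b, Oas2, Oas3, Oasl1 and Oasl2, which held 1 locus each, so that value could not differ. The median of the members was 3.04 with a pseudocount of 0.1, 2.78 with upper-quartile scaling and 2.79 with own read totals. The log2 ratio of their summed FPKM, 3.06, was 3.21 for reads per own total and 3.19 without Oasl1.

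Of the 22 pathway genes, 4 were higher and 0 lower at 4-fold, beside 116 and 56 of all 10671 genes tested. An exact binomial test of reads compares the libraries and not the conditions. At a Benjamini-Hochberg adjusted p under 0.05 it gave 16 higher and 3 lower of the 22. The same test called most genes, 3699 higher and 4286 lower of the 10671, so the list's count by this test says little. The list's median, 0.93, was 1.05 with a pseudocount of 0.1, 0.87 with upper-quartile scaling, 0.89 with own read totals, 0.99 on log2(CPM + 1), 0.14 without a filter and 0.98 with the filter at 5 FPKM. The log2 ratio of Setdb1, -1.72, became -2.04 at a pseudocount of 0.1 and -2.06 on log2(CPM + 1). Over all genes tested, those higher and lower numbered 1134 and 870 with a pseudocount of 0.1, and 1804 and 1523 at 1.5-fold. Except where thresholds or filters set the count, the cause was not tested.

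No paired analysis was possible because a single library stood for each condition, and no library was left out. Depth limits Oas1c and Oas1b, which had 29 and 67 control reads.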
